A study of Mus musculus with 26 samples.

Results

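Postsynaptic density scaffolds are the multidomain proteins that hold glutamate receptors and signaling enzymes in place under the membrane of excitatory synapses. The 9 scaffold genes described here were chosen by gene symbol: Dlg2, Dlg3, Dlg4, Dlgap1, Dlgap2, Dlgap3, Shank1, Shank2 and Shank3. All 9 were listed, each with 1 transcript, among the 9574 gene symbols of the 3 tables.

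The study measured how the kinase LRRK2, which is mutated in familial Parkinson's disease, bears on mRNA translation in the mouse brain. Striatum of C57BL/6 mice aged 3 months was profiled by ribosome footprinting, which sequences the stretches of mRNA that ribosomes shield from nuclease, and by RNA-Seq of total RNA after removal of rRNA. GS LRRK2 TG mice carry LRRK2 with G2019S, a change that raises kinase activity, and GS/DA LRRK2 TG mice carry G2019S together with D1994A, which abolishes it. Both were set against non-TG control mice, of which the labels list 1 set of samples, and LRRK2 KO mice were set against WT mice. The transgenes were under Tet-off control with a CaMKII-tTA driver, which is active in forebrain excitatory and striatal projection neurons, and doxycycline chow was withdrawn after weaning. Each transgene was represented by 1 high-copy line, and a sample was a pool of mice of both sexes, so spread between libraries is spread between pools. The labels list, per assay, 3 samples of the non-TG control and 2 of each transgenic group, and for WT and for LRRK2 KO 3 footprinting and 2 RNA-Seq samples of striatum.

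Values are reads in the coding sequence (CDS), normalized with DESeq by the authors and deposited as 1 mean per group and assay. The tables, here called the GS, the GS/DA and the KO table by their genotype, were normalized separately, so levels are compared within a table. From 10 of the 12 columns of means the reads of 2 single libraries could be recovered, and all 9 scaffold genes were resolved in each of these columns. Libraries are named the deeper and the shallower library of a group by their recovered reads, which ran from 7448887 to 18507449 for footprinting and from 8692263 to 14466807 for RNA-Seq in the transgenic tables. In the KO table they ran from 2865022 to 6040904 and from 3126208 to 10815373. In the GS table the 2 columns of controls could not be recovered, so that comparison has the mean of its controls only.

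Lrrk2 itself was read first as a check of the labels. Its footprints were 1445 and 1224 reads in the deeper and the shallower non-TG control library, against 7267 and 4766 in those of GS/DA LRRK2 TG. In the GS table they were 2524 in the control mean and 3320 and 7052 in the transgenic libraries. The GS/DA LRRK2 TG libraries thus lay above both control libraries, and those of GS LRRK2 TG above the control mean, the deeper one by little. The control mean of 2524 in the GS table was itself above that of 1335 in the GS/DA table, though the tables were normalized separately. Single control libraries of the GS table were not recovered, so the check is weak for its controls, and the source of the higher mean was not tested. WT libraries had 400 and 690 Lrrk2 footprints and LRRK2 KO libraries 102 and 150, with no overlap and with reads left in the knockout. Lrrk2 RNA-Seq values were lower in LRRK2 KO, by a log2 change of -1.54, but the RNA-Seq changes of the transgenic groups, -0.16 and -0.09, do not mark the transgene and join libraries far apart. They had 3550 and 214 reads in GS LRRK2 TG beside 2105 in the control mean, and 404 and 5038 in GS/DA LRRK2 TG beside 5233 and 560 in the controls.

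Markers of striatal spiny neurons were held in each table for 9 of 10 listed symbols, all but Drd1, which the tables carry as Drd1a. Ppp1r1b, the dopamine-regulated phosphatase inhibitor DARPP-32, was the most abundant of them. Their summed footprints were 104441 in the control mean and 114703 and 78401 in the GS LRRK2 TG libraries. The GS/DA table had 140104 in the control mean and 112529 in the transgenic mean, with 4 and 5 of the 9 genes unresolved in single libraries. WT libraries had 34943 and 25060, and LRRK2 KO libraries 37169 and 25069. In GS/DA LRRK2 TG 0 of the 9 were higher than the control in either assay, with log2 ratios of the sum of -0.32 in footprinting and -0.20 in RNA-Seq.

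Markers of other cells differed between some groups. The cortical neuron markers Tbr1, Neurod6 and Slc17a7 were held in the transgenic tables (Neurod2 and Lamp5 were not), with Slc17a7 the most abundant. Their summed footprints were 1630 and 1056 in the non-TG control libraries, against 4104 and 2574 in those of GS/DA LRRK2 TG, so the transgenic libraries were both higher. In the GS table the cortical sum was 1612 in the control mean against 431 and 2302 in the transgenic libraries, which lie on both sides of it. Its RNA-Seq sum was 1851 in the control mean against 1410 and 732 in the transgenic libraries, both below it. In RNA-Seq of the GS/DA table the sums were 915 and 1965 in the controls against 4030 and 2408, both higher. The log2 RNA-Seq ratios of the cortical sum were -0.79 and 1.16 in the GS and the GS/DA table. Of 4 choroid plexus markers only Ttr was held (Kl, Aqp1 and Folr1 were not), and its footprints were 1193 and 17056 in the non-TG control libraries and 5162 and 1137 in GS/DA LRRK2 TG. Ttr was at 3944 in the control mean of the GS table against 408 and 1037 in its transgenic libraries, and at 81.0 and 87.9 in WT against 165 and 18.2 in LRRK2 KO.

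All 5 astrocyte markers were held, with Slc1a2 the most abundant, and the log2 ratios of their sum in the GS, the GS/DA and the KO table were 0.08, 0.13 and 0.06 in footprinting and 0.02, 0.27 and -0.42 in RNA-Seq. Of 5 microglia markers 4 were held (Aif1 was not), with Csf1r the most abundant, and the ratios were 0.08, 0.13 and 0.23 in footprinting and 0.14, 0.17 and 0.35 in RNA-Seq. In footprinting of the KO table, however, single libraries stood far apart, with microglia sums of 523 and 78.6 in WT and 619 and 88.1 in LRRK2 KO and astrocyte sums of 5362 and 2405 and of 6142 and 1961. In RNA-Seq of that table the astrocyte sums were 3861 and 6214 in WT and 3735 and 3808 in LRRK2 KO, both below WT. The microglia sums in RNA-Seq also stood apart, at 352 and 820 in WT and 351 and 1145 in LRRK2 KO. Ttr had RNA-Seq ratios of -1.89, -0.88 and -1.03. The part of these cells in the values of the scaffold genes was not tested. In bulk tissue, fewer cells of a type and less RNA per cell cannot be told apart.

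The scaffold forms in layers. The membrane-associated guanylate kinases of the Dlg family bind receptor tails and adhesion molecules, the Dlgap proteins (also called SAPAP or GKAP) bind the guanylate kinase domain of the Dlg proteins, and Shank proteins bind Dlgap from below and connect it to Homer and the actin cytoskeleton. In the striatum, mice that lack Dlgap3 or Shank3 groom compulsively and have altered corticostriatal transmission, and mRNAs of Dlg4, Dlgap3 and Shank1 are known to be carried into dendrites.

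Among the Dlg family, Dlg4 encodes the core scaffold of the density that clusters NMDA receptors and, through stargazin, AMPA receptors. It had the highest level of the 9 per kilobase of CDS in both assays. In WT striatum it gave 565 footprints and 4370 RNA-Seq reads per kilobase, at percentiles 86.6 and 98.4 of all transcripts, and it gave 2146 and 7008 in the control mean of the GS/DA table. Dlg2, which anchors NMDA receptors and potassium channels, and Dlg3, which carries NMDA receptors through the secretory pathway early in development, followed in footprints. They had 1325 and 1039 footprints per kilobase in that control mean, and 330 and 357 in WT. The WT libraries had 274 and 385 for Dlg2 and 334 and 380 for Dlg3, and with the length of the longest isoform the WT means were 408 and 389, so no order of these neighbors is read.

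The Dlgap linkers lay in the middle of the footprint order. In the control mean of the GS/DA table, Dlgap2 had 654, Dlgap3 528 and Dlgap1 425 footprints per kilobase, and in WT Dlgap1 had 291, Dlgap2 196 and Dlgap3 165, so Dlgap1 went from lowest to highest of the 3. In RNA-Seq Dlgap1 and Dlgap2 had 367 and 420 reads per kilobase in the control mean of the GS/DA table, and 466 and 304 in WT. Dlgap3, the linker most abundant in striatum, had 3378 in the GS/DA control mean, at percentile 92.1 and after Dlg4 only. In WT, Dlgap3 had 1589 RNA-Seq reads per kilobase, at percentile 93.6, and its footprints were at percentile 61.7. Its place after Dlg4 in RNA-Seq held in each WT and LRRK2 KO library, while in the transgenic tables it was after Dlg4 in the libraries rich in its reads and at rank 3 or 4 in the others.

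The Shank genes had the fewest footprints per kilobase. Shank3, the main Shank of striatal synapses, had 307, Shank2 87.2 and Shank1 29.1 in the control mean of the GS/DA table, and 67.0, 28.7 and 14.8 in WT. The order Shank3, Shank2, Shank1 held ranks 7, 8 and 9 in every footprinting mean and every recovered footprinting library. Shank1 was at percentile 0.264 of all transcripts in that control mean and at 3.16 in WT. The authors discarded transcripts with low read counts, and Shank1 has the longest CDS of the 9, 6501 nt. Genes with a shorter CDS at such a level may therefore be missing, so the percentiles hold among the listed transcripts only. The counts of Shank1 were also the smallest, between 56 and 305 recovered footprints per library.

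RNA-Seq separated the libraries of each group in the transgenic tables far more than footprinting did. Of the non-TG control, the deeper and the shallower library gave Shank3 888 and 6328 RNA-Seq reads, Dlgap3 2559 and 17243, and Dlg4 8058 and 27052. Shank1 had 168 and 1912, and Shank2 246 and 1647. All 5 were high in the shallower library, by 7.12-fold, 6.74-fold, 3.36-fold, 11.4-fold and 6.69-fold. Dlg2 went the other way, with 5318 and 1815 reads, and Dlg3 (2818 and 2367), Dlgap1 (1232 and 1098) and Dlgap2 (1014 and 1671) differed less, by 1.19-fold, 1.12-fold and 1.65-fold.

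The same split was seen in both transgenic groups. In GS/DA LRRK2 TG the deeper library was the one rich in these reads, with 6271 and 751 for Shank3, 17407 and 2411 for Dlgap3, and 29691 and 7671 for Dlg4, while Dlg2 had 1389 and 7202. In GS LRRK2 TG it was the shallower one, with 734 and 6078 for Shank3, 2665 and 16474 for Dlgap3, 7621 and 30623 for Dlg4, and 4214 and 927 for Dlg2. Footprints of the 9 genes differed by 1.59-fold at most between libraries of a group in these tables. The spread of the RNA-Seq log2 ratio between libraries over transcripts with means over 300 was 1.68, 1.43 and 1.68 (SD) in GS LRRK2 TG, the non-TG control and GS/DA LRRK2 TG, against 0.649 in WT and 0.573 in LRRK2 KO. The scaffold genes were thus part of a wider difference between libraries.

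**Figure D1:**
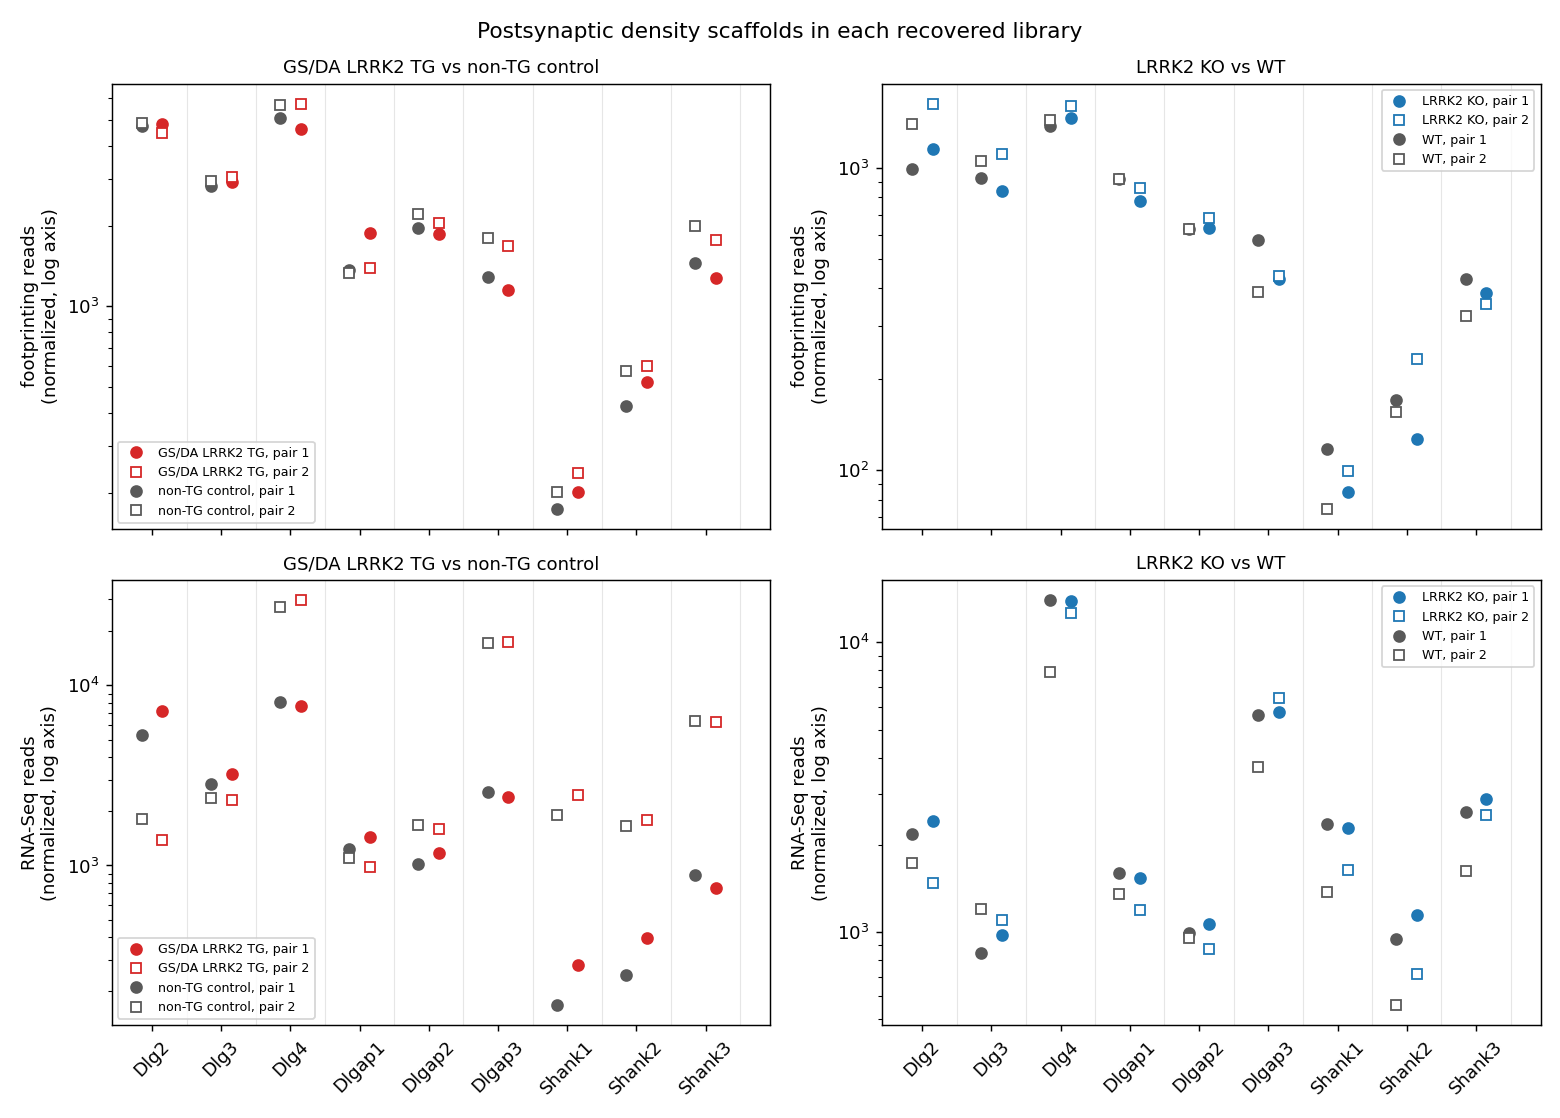
Reads of each scaffold gene (DESeq-normalized, log axis) by gene, in footprinting (top) and RNA-Seq (bottom), for the GS/DA table (left) and the KO table (right). Each point is 1 recovered library, filled circles and open squares are library pairs 1 and 2, and gray points are controls; in RNA-Seq of the left table Shank3 has 888 and 6328 reads in libraries of the non-TG control and 6271 and 751 in those of GS/DA LRRK2 TG.

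The 3 genes with the most GC in the CDS were among those that differed most between libraries, and Dlg2 with the least GC differed in the opposite direction. The CDS of Dlgap3 had 64.8% GC, that of Shank3 64.6% and that of Shank1 63.6%, at percentiles 98.1, 97.9 and 97.0 of all genes with a CDS. Shank2 had 58.8%, Dlgap1 57.7%, Dlg4 56.7%, Dlgap2 56.6% and Dlg3 53.6%, and Dlg2 had 46.1%, at percentile 15.1. Across the 9 genes, which share the libraries, the log2 ratio of the deeper to the shallower RNA-Seq library had a Spearman correlation with GC of -0.850 in GS LRRK2 TG, -0.883 in non-TG control and 0.833 in GS/DA LRRK2 TG. Over the 6509, 6851 and 7008 transcripts with means over 300 and a known GC content it was -0.790, -0.775 and 0.804, and in WT and LRRK2 KO it was 0.483 and -0.167 for the 9 genes and 0.0215 and -0.258 over such transcripts. In footprinting the 9 genes gave 0.217 in GS LRRK2 TG, -0.800 in the non-TG control, -0.750 in GS/DA LRRK2 TG, 0.933 in WT and 0.517 in LRRK2 KO, and such transcripts 0.335, -0.453, -0.485, 0.625 and 0.284, over smaller differences between libraries in the transgenic tables. These are correlations across genes, which are not independent replicates, and the part of GC content in the differences between libraries was not tested.

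**Figure D2:**
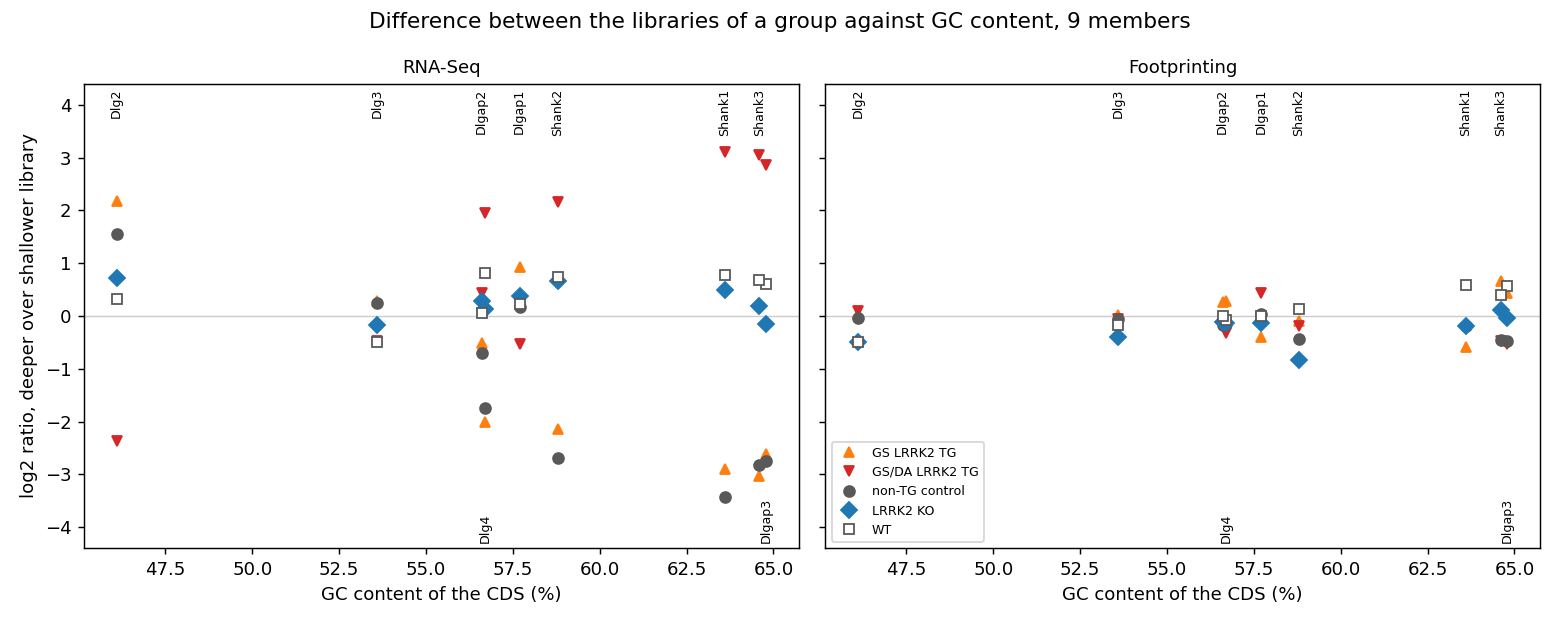
Log2 ratio of the deeper over the shallower library of a group against the GC content of the CDS (%), for RNA-Seq (left) and footprinting (right), with 1 point per scaffold gene and group. In RNA-Seq the GC-rich genes Shank1, Shank3 and Dlgap3 lie farthest from 0 in the transgenic tables, with opposite signs in GS/DA LRRK2 TG and the other groups of these tables.

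Translation efficiency (TE) is the footprinting mean over the RNA-Seq mean, here as a log2 value, and it parts the 9 genes into a low set and the others. In WT the TE was -4.28 for Shank1, -3.27 for Dlgap3, -2.95 for Dlg4, -2.48 for Shank3 and -2.20 for Shank2, at percentiles 0.0523, 0.481, 0.983, 2.37 and 4.01 of all transcripts. The other genes were between -0.71 (Dlg2, percentile 45.4) and -0.05 (Dlg3, percentile 85.2). In WT each low gene stayed low with either RNA-Seq library. Shank1 was at -4.61 and -3.84, Dlgap3 at -3.54 and -2.94, and Dlg4 at -3.31 and -2.48 with the deeper and the shallower one. Shank3 was at -2.78 and -2.10, and Shank2 at -2.53 and -1.77.

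In the non-TG control of the GS/DA table the same 5 genes were lowest by the means, with TE of -2.68 for Dlgap3, -2.46 for Shank1, -1.71 for Dlg4, -1.06 for Shank3 and -0.93 for Shank2. There the values differed with the RNA-Seq library. With the shallower library alone Shank3 had a TE of -1.87 (percentile 3.50), and with the deeper library alone 0.96 (percentile 79.6). Shank2 was at -1.73 and 1.01, Shank1 at -3.34 and 0.17, and Dlgap3 at -3.48 and -0.73. Dlg2, the gene with least GC, was at 1.41 and -0.14. The order of TE among the scaffold genes of the transgenic tables therefore changed with the library. Dlgap3 was nevertheless lowest there with each recovered RNA-Seq library, and Dlg4 was at rank 7 or 8 of the 9 from the highest. In the KO table Shank1, Dlgap3 and Dlg4 were lowest with each RNA-Seq library of WT and of LRRK2 KO.

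**Figure D3:**
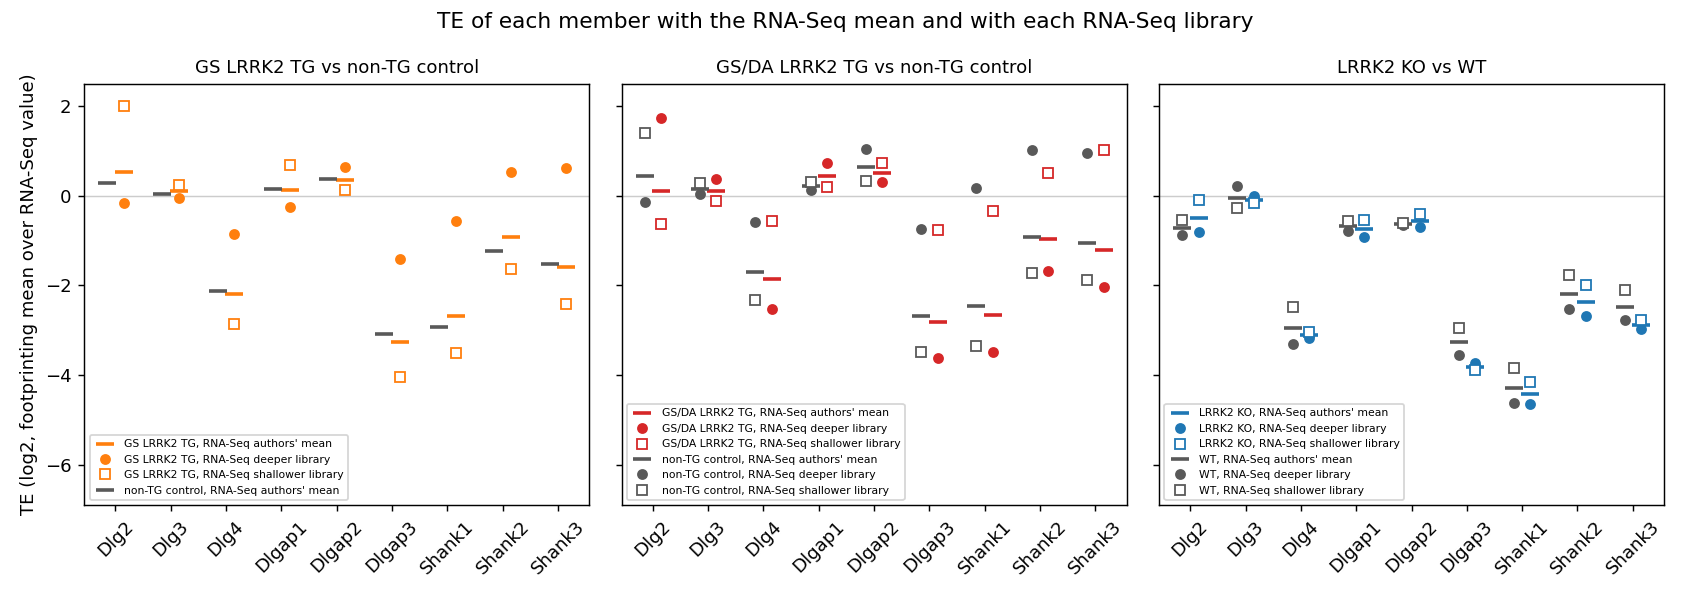
TE (log2) of each scaffold gene in the 3 tables, from the footprinting mean and the RNA-Seq mean (bars), the deeper RNA-Seq library (circles) or the shallower one (squares), with controls in gray. Depending on the RNA-Seq library, Dlg4 of WT lies at -3.31 or at -2.48 in the KO table. In the GS/DA table Shank3 of the non-TG control lies at 0.96 or at -1.87.

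For each comparison the TE difference is the log2 TE of the genotype minus that of its control, and a transcript is called past the cutoff when its z score over all transcripts is at least 1.5 or at most -1.5, which is the study's own kind of selection and no test. The test was limma on the recovered libraries, with Benjamini-Hochberg adjustment over all transcripts. Libraries of control and genotype were also matched into pairs 1 and 2 by a shared pattern of differences between libraries, since the labels name no preparation date. With 2 libraries against 2, an exact two-sided permutation test of a single gene cannot go below p = 0.333.

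The comparison of GS LRRK2 TG with its control asks what the active kinase mutant does to translation. None of the 9 scaffold genes was past the cutoff (0 of 9), beside 11.9% of all transcripts (8.01% upward and 3.91% downward). Their median changes were -0.04 in footprinting and -0.16 in RNA-Seq, beside 0.00 and -0.02 over all transcripts, and -0.01 in TE beside 0.02. Footprints lay below the control mean in 7 of 9, in Dlg2 and Dlgap1 by a change of 0.00, and RNA-Seq also in 7 of 9, while 51.2% and 44.3% of all transcripts were above it.

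In the Dlg family, Dlg4 had 4324 footprints in the control mean and 4632 and 3798 in the GS LRRK2 TG libraries, which lie on both sides of it. Its log2 change was -0.04 in footprinting and 0.01 in RNA-Seq. Dlg2 had 3748 against 3778 and 3707 footprints, and its TE difference of 0.27 came from an RNA-Seq change of -0.27. That change joins libraries at 0.45 and -1.74 relative to the control mean, so they point in opposite directions. Dlg3, the X-linked member, had a footprint change of -0.10, an RNA-Seq change of -0.17 and a TE difference of 0.07.

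Among the linkers, Dlgap3 had the lowest footprint change of the 9. It had 1253 footprints in the control mean and 1161 and 851 in the transgenic libraries, both below it, for a change of -0.32 at percentile 1.41 of all transcripts. Its RNA-Seq change was -0.15 and its TE difference -0.17, with a z score of -1.01. Dlgap2 was also below the control mean of 1623 footprints in both libraries, at 1532 and 1280, a change of -0.21. Dlgap1 had 1172 footprints in the control mean and 1009 and 1330 in the libraries, a change of 0.00.

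The Shank genes did not move as a group in GS LRRK2 TG. Shank1 had 154 footprints in the control mean and 143 and 220 in the libraries, a change of 0.24, and Shank2 had 421 against 430 and 460, a change of 0.08. Shank3 had 1338 against 1399 and 880, a change of -0.23. Only Shank2 kept 1 direction in both libraries. Its TE difference of 0.31 (z score 1.20) was the highest of the 9 and came with an RNA-Seq change of -0.23, from libraries at -1.70 and 0.48 relative to the control mean. Over the 9 genes the RNA-Seq libraries of GS LRRK2 TG had the same sign relative to the control mean in 1 gene, Dlg3, and the footprinting libraries in 4. No share over all transcripts is given beside these 2 counts, so they are not set against a background. No limma test was run here, since the control libraries were not recovered, and with single libraries in place of the transgenic means 0 to 4 of the 9 genes were past the cutoff, beside 9.69 to 10.6% of all transcripts.

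The comparison of GS/DA LRRK2 TG with the non-TG control asks what the transgene does without kinase activity. Dlgap1 alone was past the cutoff, 1 of 9, and upward, beside 11.0% of all transcripts (3.65% upward and 7.36% downward), so the share is near the background. RNA-Seq lay above the control in 8 of 9 genes, in Dlgap3 by a change of 0.00, beside 64.7% of all transcripts. The median was 0.09, beside 0.06 over all transcripts. These are changes of means, and only Shank1 and Shank2 were above the control in both library pairs. The TE difference was below 0 in 8 of 9, with a median of -0.13, beside -0.05 over all transcripts, of which 33.5% were above 0.

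Dlgap1, which ties Dlg4 to Shank, had 1365 and 1333 footprints in the non-TG control libraries, against 1877 and 1387 in those of GS/DA LRRK2 TG. Both transgenic libraries were above both controls, the deeper one by a wide margin and the shallower one by a narrow one. Its RNA-Seq reads were 1232 and 1098 against 983 and 1432, which overlap. The footprint change was 0.28 and the TE difference 0.22, with a z score of 1.72. Within library pairs the footprint change was 0.46 in pair 1 and 0.06 in pair 2, so most of it came from the deeper GS/DA LRRK2 TG library. With the shallower footprinting and the shallower RNA-Seq library of GS/DA LRRK2 TG, the TE difference was as low as -0.36, set against controls of the other pair. Within pairs the TE difference ran from -0.16 to 0.62. Groups did not overlap in footprinting for 1 of 9 scaffold genes, beside 24.3% of all transcripts, and in RNA-Seq for 0 of 9, beside 3.39%.

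The other linkers had lower footprints on average, with overlap. Dlgap2 had 1962 and 2225 in the controls against 1869 and 2051, a change of -0.09. Dlgap3 had 1291 and 1802 against 1153 and 1680, a change of -0.13, with RNA-Seq at 0.00. In both genes the change had the same sign in each library pair, -0.07 and -0.12 for Dlgap2 and -0.16 and -0.10 for Dlgap3.

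Of the Shank genes, Shank3 had 1455 and 2005 footprints in the controls against 1283 and 1780 in GS/DA LRRK2 TG, a change of -0.18, and its within-pair changes were -0.18 and -0.17. Shank1 had 175 and 203 against 202 and 238, a change of 0.22 with 0.21 and 0.23 within pairs. Shank2 had 423 and 571 against 521 and 601, a change of 0.17 with 0.30 and 0.07. For all 3 genes the groups overlapped. The pairs were themselves read from these values, and across pairs the changes ran from -0.64 to 0.29 for Shank3 and from -0.13 to 0.51 for Shank2. In RNA-Seq Shank1 had 168 and 1912 reads in the controls and 2477 and 279 in GS/DA LRRK2 TG, with a change of 0.41 from the means and 0.73 and 0.37 within pairs. Its TE difference was therefore -0.18 while its footprints were higher.

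In footprints the Dlg family was near its control. Dlg4 had 5089 and 5660 footprints in the controls against 4597 and 5727, a change of -0.06, and Dlg3 had 2823 and 2954 against 2922 and 3050, a change of 0.05. Dlg2 had 4749 and 4870 against 4807 and 4475, a change of -0.05. Its TE difference was the lowest of the 9, -0.32 with a z score of -1.41, and came from RNA-Seq at 0.27. Its RNA-Seq libraries were 5318 and 1815 in the controls and 1389 and 7202 in GS/DA LRRK2 TG, with changes of 0.44 and -0.39 within pairs, which differ in sign.

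Footprint changes had the same sign in both library pairs for 7 of 9 scaffold genes, beside 60.6% of all transcripts, and RNA-Seq changes for 3 of 9, beside 37.8%. limma with Benjamini-Hochberg adjustment called 0 of 8363 transcripts in footprinting, in RNA-Seq and in TE. At an unadjusted p under 0.05 there were 142 transcripts in footprinting (1.70%), 0 in RNA-Seq and 0 in TE, with 0 of the 9 scaffold genes among them, and the adjusted p of each of the 9 was 1. The 95% limma interval of the Dlgap1 footprint change was -0.14 to 0.66, and that of the Shank3 change -0.70 to 0.35. With library pair as a block in the limma fit, 154 transcripts (1.84%) were called in footprinting, 1 (0.0120%) in RNA-Seq and 0 in TE after Benjamini-Hochberg adjustment, and 0 of the 9 scaffold genes. The blocked shares at an unadjusted p under 0.05 were 15.3%, 1.39% and 0.263%, and they held 2, 1 and 0 of the 9. The blocked interval was 0.06 to 0.45 for Dlgap1 and -0.32 to -0.04 for Shank3, and neither passed adjustment over all transcripts.

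The comparison of LRRK2 KO with WT asks what loss of the endogenous kinase does. Dlgap3 and Shank3 were past the cutoff, both with lower TE, which makes 2 of 9, beside 12.3% of all transcripts (6.23% upward and 6.02% downward). A count of 2 in 9 genes is too small to set the list apart from that background. Their RNA-Seq values were higher in LRRK2 KO, by 0.39 and 0.36, at percentiles 97.3 and 96.3 of all transcripts, with footprints at -0.16 and -0.03. Over the 9 genes the median was -0.02 in footprinting, 0.08 in RNA-Seq and -0.14 in TE, beside 0.02, 0.01 and 0.02 over all transcripts, and TE was below 0 in 7 of 9, while 53.0% of all transcripts were above 0.

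Dlgap3 had 5614 and 3703 RNA-Seq reads in the WT libraries and 5771 and 6421 in the LRRK2 KO libraries. Both LRRK2 KO libraries were above both WT libraries, by little over the deeper WT library and by more over the shallower one. It was the only gene of the 9 without overlap in RNA-Seq, beside 14.1% of all transcripts. Its footprints were 577 and 389 in WT and 429 and 438 in LRRK2 KO, so the knockout lay inside the WT range. The TE difference was -0.54 with a z score of -2.07 at percentile 1.90. Within pairs RNA-Seq changed by 0.04 and 0.79 and footprints by -0.43 and 0.17, and the TE difference ran from -1.22 to 0.13 over the 4 combinations of pairs.

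Shank3, the partner that binds Dlgap3 at corticostriatal synapses, had 2595 and 1619 RNA-Seq reads in WT and 2876 and 2545 in LRRK2 KO, which overlap. Its footprints were 430 and 325 in WT and 385 and 354 in LRRK2 KO, again inside the WT range. The TE difference was -0.39 with a z score of -1.52, close to the cutoff. Over the 4 combinations of pairs it kept its sign, from -0.81 to -0.03, and RNA-Seq changed by 0.15 and 0.65 within pairs. Both genes were low in the shallower WT RNA-Seq library. With the deeper WT library in RNA-Seq and the shallower one in footprinting, the TE difference was as high as 0.13 for Dlgap3 and 0.27 for Shank3. The value for Shank3 crosses library pairs.

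The other Shank genes had TE differences on the same side but smaller. Shank1 had 2354 and 1374 RNA-Seq reads in WT against 2293 and 1635, and 118 and 74.6 footprints against 84.9 and 99.3, for a TE difference of -0.14. Shank2 had 943 and 560 RNA-Seq reads against 1143 and 717, and 171 and 156 footprints against 127 and 234, for a TE difference of -0.17. In both genes the libraries overlapped in each assay, and footprints were lower in pair 1 and higher in pair 2.

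In the Dlg family, Dlg4 had 1381 and 1447 footprints in WT and 1466 and 1604 in LRRK2 KO, a change of 0.12 without overlap. Its RNA-Seq reads were 13985 and 7906 against 13948 and 12621, a change of 0.28, with 0.00 and 0.67 within pairs. Dlg2 had 995 and 1398 footprints against 1152 and 1630, a change of 0.22 that was alike in both pairs, 0.21 and 0.22, and the highest footprint change of the 9. Dlg3 had 928 and 1057 against 842 and 1112, a change of -0.02. Dlg2 was the only gene of this family whose TE difference, 0.22, kept its sign over the 4 combinations of pairs, from 0.06 to 0.45.

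The remaining linkers had small changes without overlap in footprinting. Dlgap1 had 923 and 921 footprints in WT and 778 and 857 in LRRK2 KO, a change of -0.17, and Dlgap2 had 627 and 630 against 632 and 683, a change of 0.06. Groups did not overlap in footprinting for 3 of 9 scaffold genes, Dlg4, Dlgap1 and Dlgap2, beside 12.6% of all transcripts. The direction was higher in Dlg4 and Dlgap2 and lower in Dlgap1, and the margins to the nearest WT library were narrow.

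Changes had the same sign in both library pairs for 4 of 9 scaffold genes in footprinting and for 4 of 9 in RNA-Seq, beside 43.7% and 48.1% of all transcripts. limma with Benjamini-Hochberg adjustment called 0 of 9526 transcripts in each assay and in TE. At an unadjusted p under 0.05 there were 6 in footprinting (0.0630%), 6 in RNA-Seq and 2 in TE (0.0210%), with 0 of the 9 scaffold genes among them. The 95% limma interval of the Shank3 TE difference was -1.35 to 0.52. With library pair as a block, 9 transcripts (0.0945%) were called in footprinting, 11 (0.115%) in RNA-Seq and 0 in TE after Benjamini-Hochberg adjustment, and again 0 of the 9 scaffold genes. The blocked shares at an unadjusted p under 0.05 were 2.62%, 4.29% and 1.81%, and they held 0, 0 and 1 of the 9. The blocked interval of the Dlgap3 TE difference was -1.05 to -0.03, and it did not pass adjustment.

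The control means of the 2 transgenic tables are not means of the same libraries alone, since Lrrk2 had 2524 control footprints in the GS table and 1335 in the GS/DA table while Ttr had 3944 and 9125. With 3 control samples per assay in the labels, they share at least 1 library if each joins 2 or more, so the comparisons are not independent and the values of a gene in both are set side by side only. The z scores in the GS and the GS/DA table were 0.99 and -1.41 for Dlg2, -0.28 and 1.72 for Dlgap1, -1.01 and -0.30 for Dlgap3, 1.20 and 0.22 for Shank2, and -0.58 and -0.36 for Shank3. In LRRK2 KO they were 0.74, -0.30, -2.07, -0.69 and -1.52. Dlg3, Dlg4, Dlgap2 and Shank1 were between -0.66 and 0.92 in the 3 comparisons. Whether a gene differed between the comparisons was not tested.

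Other properties were read from the annotation and the tables. The folding energy of the 5′UTR, deposited by the authors as the lowest value over isoforms, was -707.59 kcal/mol for Dlg3, at percentile 1.12 of all transcripts, and -326.6 for Dlgap1, at 7.92. Shank2 had -237.24, Dlgap3 -226.7, Dlgap2 -161.6 and Dlg4 -132.7 kcal/mol. Shank1 with -67.1, Dlg2 with -63.5 and Shank3 with -30.5 had the weakest predicted structure, Shank3 at percentile 81.4. The genes with lowest TE by the means of each table, Shank1, Dlgap3 and Dlg4, were at percentiles 60.4, 16.2 and 35.2, between these ends. In coding sequence, 0% of the 28-base words of 8 genes occurred in another gene, and for Dlgap3 it was 0.447%, shared with 5 genes. Only exact words were counted. The authors' alignment allowed a mismatch and kept shorter reads, so reads from similar stretches of other genes were not covered.

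The start codons were read from a single annotated transcript per gene. In these transcripts a G follows the start codon in 0 of 9 scaffold genes. It does so in 52.7% of 9166 genes of the tables with an annotated start. A purine lies 3 bases before the start codon in 8 of 9 scaffold genes, beside 86.0% of those genes. Shank3 is the exception, with a C. Other transcripts of a gene may start elsewhere and were not read. The count of 0 of 9 therefore holds for the transcripts read only and is not taken as a feature of the genes. The starts of the genes past the cutoff in a comparison, of Shank1 with the lowest TE in the KO table and of Dlg4 with the highest level are shown, from the NCBIM37 (mm9) genome, with the start codon in capitals and 9 bases before and 6 after it. Whether these bases bear on TE was not tested.
Dlgap1: cagtcagcaATGaaaggg
Dlgap3: gctgaggccATGaggggt
Shank3: ccggggccgATGcagcta
Shank1: ggccccacgATGacccac
Dlg4: agaagagagATGtcccag
These start codons lie on the plus strand at chr17:70865362-70865364, chr4:126871857-126871859, chr15:89330063-89330065, chr7:51568077-51568079 and chr11:69830717-69830719, in the order of the lines.

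Genes that work with the scaffold were read from a list of 35 symbols, of which 29 were held in each table. In GS LRRK2 TG 0 of 29 were past the cutoff, in GS/DA LRRK2 TG 2 and in LRRK2 KO 3, beside 11.9%, 11.0% and 12.3% of all transcripts. In GS/DA LRRK2 TG 1 was past it in each direction: Grip1, an AMPA receptor binding protein, with a z score of 1.86, and Cask, a membrane-associated guanylate kinase, with -1.85. In LRRK2 KO Cnksr2, a scaffold that binds Dlg4, was past it upward with 1.67, and Bai1, an adhesion receptor, and Iqsec2, an Arf exchange factor, downward with -1.79 and -1.52. The medians of the TE difference were 0.00, -0.06 and -0.05 in the GS, the GS/DA and the KO table, beside 0.02, -0.05 and 0.02 over all transcripts.

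By the size of change, the partners ranged as follows. In footprinting the highest and lowest were Lrrtm2 (0.14) and Lrrtm1 (-0.25) in GS LRRK2 TG, Kalrn (0.20) and Lrrtm1 (-0.28) in GS/DA LRRK2 TG, and Homer1 (0.32) and Bai1 (-0.20) in LRRK2 KO. In RNA-Seq they were Grin2b (0.28) and Homer1 (-0.41), Cask (0.41) and Lrrtm1 (-0.23), and Sipa1l1 (0.31) and Cnksr2 (-0.36). Homer1, which binds Shank, thus had the highest footprint change in LRRK2 KO and the lowest RNA-Seq change in GS LRRK2 TG.

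For each scaffold gene the transcripts with the most similar 6 changes (footprinting and RNA-Seq in the 3 comparisons) were sought among 1675 transcripts whose means were all at least 500. Likeness is the Euclidean distance of the log2 values. Nearest were Mink1 to Dlg4 (0.0821), Cbx6 to Dlgap2 (0.0944), Pdk2 to Dlg3 (0.102), Ranbp2 to Dlg2 (0.124) and Unc80 to Shank1 (0.142). Rps2 was nearest to both Shank3 (0.161) and Dlgap3 (0.239), Ap3b2 to Dlgap1 (0.168) and Huwe1 to Shank2 (0.171). Behind these came Arid1a and Psd for Dlg4, Rasd2 and Prkcz for Shank3, Arhgap33 and Ptms for Dlgap3, and Opa1 and Wnk1 for Dlg2. Next for the others were Hdlbp for Dlg3, Usp19 and Amph for Dlgap1, 6430527G18Rik and Srm for Dlgap2, mKIAA0896 and Syne1 for Shank1, and Hausp and Herc2 for Shank2.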

How the data were processed

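Ribosome footprints and total RNA of mouse striatum were sequenced, and the authors deposited 1 table per comparison. By the authors, reads were called with CASAVA 1.8 and aligned to mm9 with TopHat2 2.0.11 and Bowtie2 2.2.2, and CDS reads were normalized by the authors with DESeq 1.20. The deposited group means are a signal, with no SD. The deposited folding energies have another unit (other), kcal/mol. The tables also hold the authors' TE, TE difference and z score, which were not used.

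The members and lists were chosen with earlier results of these data known. All 9 scaffold genes are named; of the partner list, those past the TE cutoff and the highest and lowest changes; and for each scaffold gene up to 3 nearest transcripts. Some planned marker results are left out of the text.

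TE and its z score were recomputed with a pseudocount of 0. In a mean of 2 libraries each read adds a step of fixed size for its library, and single libraries were recovered from these steps, with 98.1 to 99.9% of transcripts resolved in a column, but only 73.2 to 97.2% of the mean signal, since abundant transcripts were lost more often. The recovery, limma and the z score were tested on simulated data. The recovery assumes that a mean joins 2 libraries, although the labels list 3 samples for some groups. Recovered libraries carry no replicate number, and pairs were read from the values. limma 3.58.1 in R 4.3.3 was fitted with a trend to log2 of recovered normalized reads plus 10, per assay and with an interaction of genotype and assay for TE, and p was adjusted by Benjamini-Hochberg at 0.05. The paper states that each lysate was divided between the 2 assays. The fit for TE has no term for pools shared by the assays, and recovered libraries were not matched to pools. The paper lists mapped reads per replicate and assay, which were not used for such a match. Other steps used Python 3.11.15. The NCBIM37 annotation gave the length and GC content of the CDS, for 97.2% of transcripts in the transgenic tables and 97.0% in the KO table.

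Alternatives were means of at least 256 or 512, other pseudocounts, a z score from the median, cutoffs of 1 and 2, 1 transcript per symbol, total-read scaling, a block for library pair, the longest isoform, and single libraries. The TE count within library pairs was added after seeing the data. The ventral midbrain samples, 1 per genotype, are in none of the tables and were left out.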

Additional observations from a re-analysis of the deposited data

How the results depend on the processing

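The count of scaffold genes past the TE cutoff in GS LRRK2 TG, 0 of 9, was 2 at a cutoff of 1, which 28.5% of all transcripts pass, and ran from 0 to 4 over single transgenic libraries (9.69 to 10.6% of all). In GS/DA LRRK2 TG the count of 1 became 2 with the lower and with the higher of the minimum group means, with a z score from the median and scaled MAD, and at a cutoff of 1, where Dlg2 joined Dlgap1 (10.8%, 9.82%, 18.2% and 24.8% of all). It was 0 at a cutoff of 2 (5.21%), ran from 0 to 4 with 1 library per group and assay (10.4 to 13.7%), and was 0 within footprinting pair 2 and RNA-Seq pair 2. In LRRK2 KO the count of 2 was 0 with the higher minimum mean, which removes Dlgap3 and Shank3 themselves and so does not bear on them, 1 at a cutoff of 2 (Dlgap3; 5.07% of all), and 0 to 4 with 1 library per group and assay (11.3 to 13.5%). Within pairs it was 4 for footprinting pair 1 with RNA-Seq pair 2, 1 for footprinting pair 2 with RNA-Seq pair 1, and 0 for pair 2 of both. The within-pair counts were chosen after seeing the data. They are not given for every combination of pairs in either comparison and have no share of all transcripts beside them. No conclusion on the scaffold genes is drawn from them.

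Over 16 combinations of single libraries the TE difference took both signs in 9 of 9 genes in both comparisons. No share of all transcripts is given beside this count, so it is not read as particular to the scaffold genes. These combinations also cross library pairs. Within pairs the sign held for Dlgap3 (-0.18 to -0.02) and Shank1 (-0.52 to -0.14) in GS/DA LRRK2 TG, and for Dlg2 (0.06 to 0.45) and Shank3 (-0.81 to -0.03) in LRRK2 KO. Over all 16, for Dlgap1 in GS/DA LRRK2 TG it ran from -0.36 to 0.82, with reversals at -0.19, -0.36, -0.16 and -0.33. In LRRK2 KO it ran from -1.22 to 0.13 for Dlgap3, reversed at 0.10 and 0.13, and from -1.11 to 0.27 for Shank3, reversed at 0.10, 0.27 and 0.15. The cause was not tested. Transcripts called by limma in GS/DA LRRK2 TG went from 0 to 154 in footprinting and to 1 in RNA-Seq with library pair as a block, and footprinting gave 2 to 37 with 1 library left out, where the lone library is assumed to vary like the other group. In LRRK2 KO the block gave 9 in footprinting and 11 in RNA-Seq. None of these calls was a scaffold gene. Pseudocounts of 1 and 50, the lower minimum mean and scaling to total reads left all limma counts at 0.

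No paired analysis was possible because recovered libraries carry no replicate number from the labels. The library pairs used as a block above were read from the values and are no substitute for it. limma was not run for GS LRRK2 TG because its control libraries were not recovered. Shank1 and Shank2 rest on few footprints. With the longest isoform, levels per kilobase of the controls were within 1.5-fold in 54 of 54 values, but ranks of neighbors changed, such as Dlg2 and Dlg3 in WT footprints.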
